A study of Mus musculus with 4 samples.

Results

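The 39 genes described here encode the T cell receptor complex, the proteins that carry its signal and other proteins typical of the T lineage, and all 39 were found by symbol among the 22475 gene symbols used. They were taken from a given list of names, which was chosen with earlier results of these data known. Each had a single row in the deposited table. Levels are FPKM, fragments scaled to transcript length and to the mapped fragments of the library, so levels of different genes can be compared per length.

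The T cell receptor recognises peptides held by MHC molecules and has no signalling part of its own. Its signal runs through the CD3 and zeta chains, whose tyrosine motifs are phosphorylated by the kinase Lck and then bind the kinase ZAP-70, which phosphorylates the adaptors LAT and SLP-76. The coreceptors CD8 and CD4 bind MHC class I and class II and bring Lck to the receptor. PD-1, an inhibitory receptor of T cells, dampens this proximal signal, and antibodies that block it are used to raise the activity of T cells in tumours.

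RNA-seq was performed on tumours grown from CT26, a colon carcinoma line of the BALB/c mouse strain. The groups were IL-34 deficient CT26 untreated, IL-34 deficient CT26 treated with αPD-1 mAb (an anti-PD-1 antibody), IL-34 overexpression CT26 untreated and IL-34 overexpression CT26 treated with αPD-1 mAb, with 1 library each. The cytokine IL-34 acts on the receptor of the macrophage growth factor CSF-1, and the design asks how tumours with and without it respond to anti-PD-1. No line with unaltered IL-34 was among the 4, so loss and overexpression of IL-34 cannot be told apart, and the labels give neither the number of animals or clones behind a library nor the time and dose of treatment. No group had a replicate, so no value below has an error or a test.

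Il34 itself had levels of 3.52 FPKM (untreated) and 3.02 FPKM (treated) in deficient tumours, and of 104 FPKM in both overexpressing libraries. Total fragments are not given by FPKM, and the depth of the libraries, read from the steps of values below 0.1 FPKM, lay between 90.0% and 100% of that of the untreated deficient library. The anti-PD-1 deficient library stood apart from the others. Its 10 epidermis genes summed to 127 FPKM against 1.58 to 5.62 FPKM in the other libraries, and its 10 skeletal muscle genes to 415 FPKM against 19.99 to 134 FPKM. All 10 epidermis and all 10 muscle genes were higher there than in the untreated deficient library by a log2 ratio of at least 1, most of the epidermis genes reaching 1 FPKM nowhere else. Both lists together made up 0.111% of all FPKM in that library. Every comparison that includes it carries this difference in tissue, whose part in the T cell values was not tested. The comparisons of the untreated lines and of the overexpressing pair do not include it, but their muscle gene levels were not equal. The muscle genes summed to 134 FPKM in untreated deficient, 105 FPKM in untreated overexpressing and 19.99 FPKM in treated overexpressing tumours.

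The anti-PD-1 deficient library had the highest level of 37 of the 39 T cell genes, the exceptions being Lef1 and Trat1. Among all 11790 genes that reached 1 FPKM somewhere, that library was the highest for 30.8%, and among the 36 of the 39 that did so, for 35. Gata3 reached 1 FPKM in that library alone. The anti-PD-1 overexpressing library was the lowest for 27 of the 39 and for 25 of those 36, against 20.7% of the 11790 genes. The summed level of the 39 was 279 FPKM in untreated deficient tumours, 565 FPKM in treated deficient tumours, 261 FPKM in untreated overexpressing tumours and 237 FPKM in treated overexpressing tumours. Their share of all FPKM was 0.0513%, 0.116%, 0.0498% and 0.0458% in that order, and their median level was 2.87, 4.57, 2.32 and 2.03 FPKM. In whole tumours, more T cells and more RNA per T cell cannot be told apart.

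**Figure D1:**
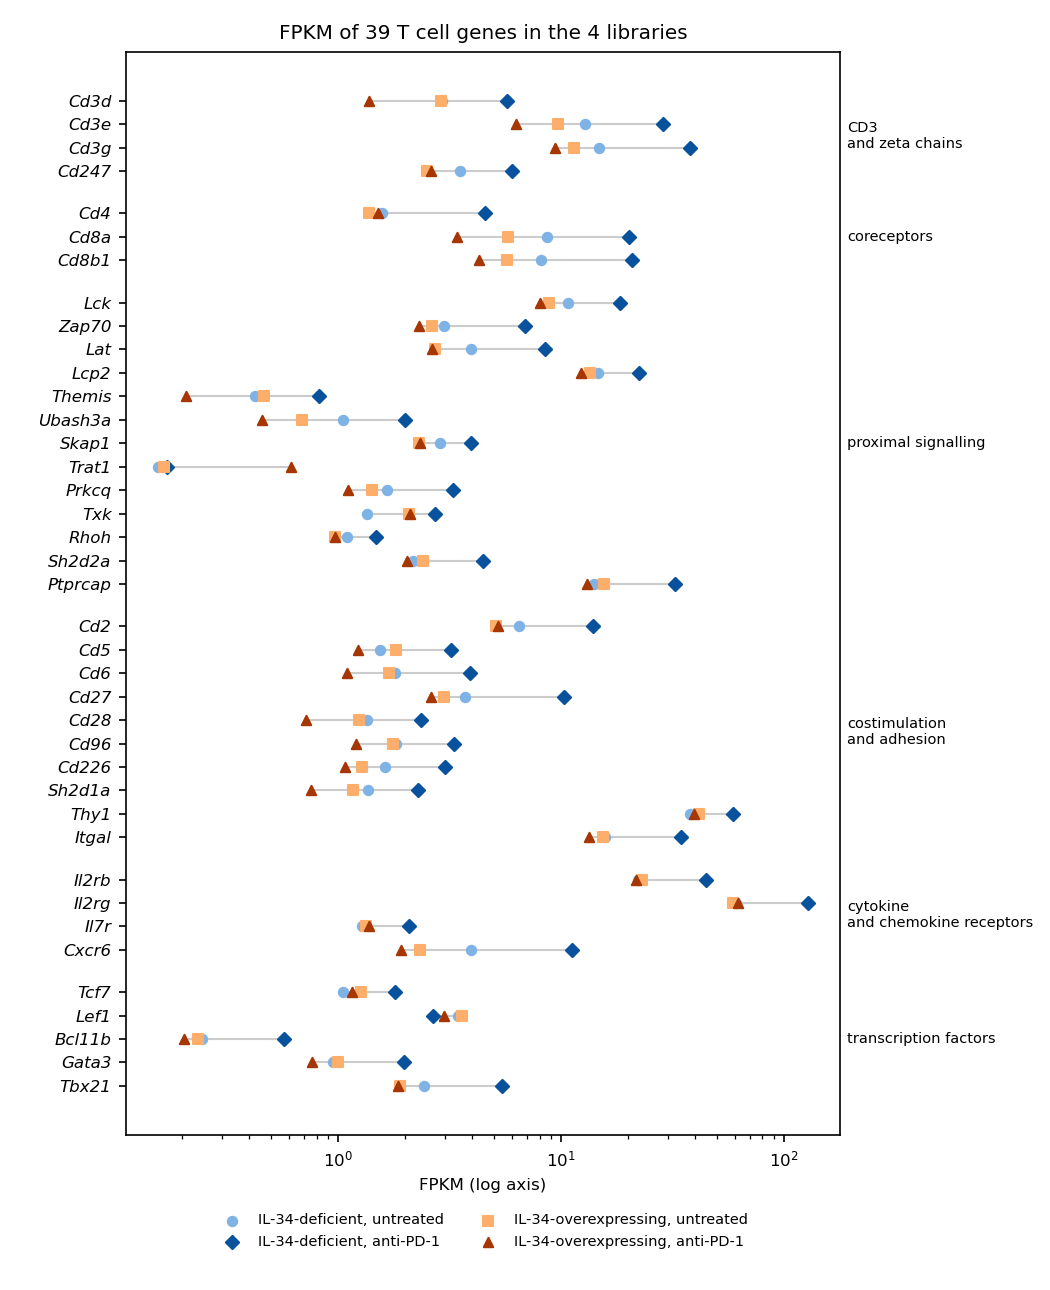
FPKM (log axis) of the 39 T cell genes, ordered by role, in the 4 libraries, with 1 point per library and a grey line from the lowest to the highest. The anti-PD-1 deficient library (dark diamonds) is the highest for all but Lef1 and Trat1, and the anti-PD-1 overexpressing library (dark triangles) is the lowest for 27 genes.

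The chains of the receptor complex come first. Values are given from here on in the order untreated deficient, treated deficient, untreated overexpressing and treated overexpressing. Cd3e (chr9:44998743-45009590, mm10), the epsilon chain found in both CD3 dimers, was at 12.8, 28.5, 9.69 and 6.25 FPKM. Cd3g (chr9:44969572-44980431), the gamma chain, was at 14.7, 37.7, 11.4 and 9.38 FPKM. Cd3d (chr9:44981786-44987052), the delta chain, was lower per length, at 2.91, 5.74, 2.88 and 1.37 FPKM. All 3 had the same highest and the same lowest library, both treated with anti-PD-1. Their mean was 10.2, 24.0, 7.997 and 5.67 FPKM. Cd247 (chr1:165788681-165871153), the zeta chain, which also serves receptors of natural killer cells, was at 3.51, 6.04, 2.49 and 2.60 FPKM, so its overexpressing libraries lay close together. Its model overlaps that of Pou2f1, and whether the counting used strand is not given here.

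Cd3g and Cd3d lie head to head. At the RefSeq start sites used for the promoters, they are 1355 bases apart, and Cd3e starts 27825 bases beyond Cd3d. The RefSeq start site of Cd3e differs from the end of its gene model given above. Because these linked genes and Cd8a were among those with the widest contrast between the treated libraries, their promoters are shown, from 250 bases before to 50 bases after the start site (RefSeq, GRCm38.p6, the primary sequence of mm10), 5′ to 3′ on the strand of the gene. They lie at chr9:44980382-44980681 (minus strand) for Cd3g, chr9:44981536-44981835 (plus strand) for Cd3d, chr9:45009562-45009861 (minus strand) for Cd3e and chr6:71373177-71373476 (plus strand) for Cd8a. Capitals mark matches, on either strand, to 6 motifs, which are AGGAAG for ETS factors, TGTGGT for RUNX factors, AGATAA for factors of the Gata3 family, CTTTGA for TCF and LEF factors, CAGCTG for E proteins and TATAAA of the basal machinery. No match overlapped another.
Cd3g: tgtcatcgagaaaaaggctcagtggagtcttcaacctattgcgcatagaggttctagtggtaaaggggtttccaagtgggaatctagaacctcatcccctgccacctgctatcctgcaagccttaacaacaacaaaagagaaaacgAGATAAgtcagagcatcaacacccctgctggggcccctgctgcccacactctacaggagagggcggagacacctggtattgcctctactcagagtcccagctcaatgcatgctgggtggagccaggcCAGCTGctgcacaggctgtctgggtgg
Cd3d: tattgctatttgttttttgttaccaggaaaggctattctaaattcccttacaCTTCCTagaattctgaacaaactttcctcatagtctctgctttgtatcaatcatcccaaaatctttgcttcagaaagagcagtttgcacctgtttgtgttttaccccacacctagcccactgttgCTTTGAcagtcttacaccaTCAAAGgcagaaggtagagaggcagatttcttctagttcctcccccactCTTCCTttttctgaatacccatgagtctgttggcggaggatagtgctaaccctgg
Cd3e: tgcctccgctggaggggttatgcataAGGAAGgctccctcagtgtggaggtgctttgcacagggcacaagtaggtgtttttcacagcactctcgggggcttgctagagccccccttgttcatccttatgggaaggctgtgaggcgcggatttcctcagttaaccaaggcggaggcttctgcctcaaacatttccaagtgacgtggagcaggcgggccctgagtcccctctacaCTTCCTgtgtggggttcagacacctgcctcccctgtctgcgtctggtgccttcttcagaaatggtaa
Cd8a: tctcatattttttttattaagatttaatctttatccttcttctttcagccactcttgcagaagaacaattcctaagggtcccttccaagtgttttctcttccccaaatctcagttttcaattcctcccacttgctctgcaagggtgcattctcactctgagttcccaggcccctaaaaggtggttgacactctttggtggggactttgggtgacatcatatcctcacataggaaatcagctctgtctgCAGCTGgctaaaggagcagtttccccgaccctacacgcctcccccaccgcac

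In these windows Cd3d and Cd3e held ETS letters, Cd3d held the TCF and LEF letters on both strands, Cd3g held those of the Gata3 family, and Cd3g and Cd8a held the E protein letters. RefSeq promoters of the same length were matched for 26 of the 39 genes. The ETS letters stood in 14 of these 26 (53.8%) and in 35.1% of 27025 promoters, 1 per gene symbol. The shares were 34.6% and 16.2% for TCF and LEF, 26.9% and 16.9% for RUNX, 23.1% and 16.1% for E proteins, 11.5% and 11.4% for the Gata3 family and 11.5% and 14.2% for the basal motif. These matches describe letters and do not show binding.

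Of the 39 genes, Cd8a had the widest ratio between the treated libraries in which the deficient one was higher. Cd8a (chr6:71373427-71379171), the chain shared by both forms of CD8, was at 8.61, 20.2, 5.77 and 3.42 FPKM. Cd8b1 (chr6:71322812-71337451), its partner in the heterodimer of conventional CD8 T cells, was at 8.16, 20.7, 5.73 and 4.29 FPKM. The treated deficient library was therefore 5.91-fold above the treated overexpressing library for Cd8a and 4.82-fold for Cd8b1. Cd4 (chr6:124864693-124888209), the MHC class II coreceptor, which some mouse dendritic cells also carry, was at 1.57, 4.57, 1.38 and 1.52 FPKM. Without the treated deficient library, Cd4 varied 1.14-fold and Cd8a 2.52-fold from the lowest to the highest library. The ratio of Cd8a to Cd4 was 5.497, 4.43, 4.19 and 2.26, lowest in the treated overexpressing library. Cd8b1 over Cd8a was 0.947, 1.02, 0.993 and 1.26.

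Kinases and adaptors near the receptor follow. Lck, the kinase that starts the signal, was at 10.7, 18.4, 8.86 and 8.05 FPKM. Zap70, the next kinase, was at 2.99, 6.92, 2.65 and 2.30 FPKM. Lat, the membrane scaffold that ZAP-70 phosphorylates, was at 3.96, 8.45, 2.71 and 2.62 FPKM. For these 3 genes both overexpressing libraries were close to each other and below both deficient libraries. Lcp2, which encodes the adaptor SLP-76 and is also used by myeloid cells and platelets, was at 14.7, 22.4, 13.4 and 12.3 FPKM. Prkcq, protein kinase C theta of the path to NF-κB, was at 1.66, 3.29, 1.42 and 1.10 FPKM. Ptprcap, which associates with the phosphatase CD45, was at 14.02, 32.3, 15.6 and 13.02 FPKM, with 3 libraries close together and the treated deficient library 2.305-fold above the untreated one.

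Other members of the proximal group were low. Sh2d2a, the T cell adaptor TSAd, was at 2.17, 4.44, 2.41 and 2.03 FPKM. Skap1, an adaptor for integrin activation, was at 2.87, 3.95, 2.31 and 2.33 FPKM. Txk, a Tec family kinase, was at 1.35, 2.72, 2.07 and 2.11 FPKM, and was lowest in untreated deficient tumours. This order differs from that of Lck, Zap70 and Lat, which were lowest in treated overexpressing tumours. Ubash3a, which restrains receptor signalling, was at 1.05, 2.003, 0.686 and 0.458 FPKM. Rhoh, a GTPase needed for ZAP-70 function, was at 1.10, 1.48, 0.968 and 0.969 FPKM. Levels below 1 FPKM in every library were found for Themis, needed for T cell development in the thymus, at 0.425, 0.825, 0.467 and 0.207 FPKM, and for Trat1. Trat1, an adaptor bound to the receptor complex, was at 0.156, 0.170, 0.165 and 0.613 FPKM, and alone among the 39 was highest in treated overexpressing tumours, at a level set by few fragments.

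Costimulatory and adhesion receptors showed the same highest library in all 10 cases. Cd27, a costimulatory receptor of the TNF receptor family, was at 3.70, 10.3, 2.98 and 2.60 FPKM, and its model overlaps that of E130112N10Rik, which was at 0.0375 to 0.212 FPKM. Cd28, the receptor for CD80 and CD86, was at 1.35, 2.36, 1.24 and 0.719 FPKM. Cd2, an adhesion receptor also present on natural killer cells, was at 6.50, 13.9, 5.12 and 5.19 FPKM. Of these 3, Cd28 had the widest gap within the overexpressing line, 1.72-fold, and Cd2 had nearly equal levels there. The scavenger receptor family members Cd5 and Cd6, which tune receptor signalling, were at 1.54, 3.19, 1.82 and 1.23 FPKM and at 1.79, 3.92, 1.69 and 1.10 FPKM. Itgal, the alpha chain of the integrin LFA-1, which most leukocytes carry, was at 15.8, 34.6, 15.4 and 13.3 FPKM. Thy1, a surface protein of mouse T cells that fibroblasts also make, was at 38.03, 59.1, 41.7 and 39.4 FPKM. The 3 libraries other than the treated deficient one lay within 1.10-fold of each other for Thy1 and 1.19-fold for Itgal. Cd96 and Cd226, receptors for nectin-like ligands with opposing effects, were at 1.81, 3.31, 1.76 and 1.203 FPKM and at 1.63, 3.01, 1.28 and 1.08 FPKM. Sh2d1a, which encodes the adaptor SAP of SLAM family receptors, was at 1.36, 2.28, 1.17 and 0.758 FPKM.

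Receptors for cytokines and chemokines held the most abundant of the 39 transcripts per length. Il2rg, the common gamma chain shared by receptors for IL-2, IL-7 and other cytokines and made by many leukocytes, was at 60.9, 127, 59.2 and 61.9 FPKM. Il2rb, the chain shared by IL-2 and IL-15 receptors on T and natural killer cells, was at 22.1, 44.8, 22.9 and 21.8 FPKM. Both were about as high in untreated deficient tumours as in both overexpressing libraries, within 1.05-fold. Il7r, the IL-7 receptor of naive and memory T cells, was at 1.29, 2.08, 1.34 and 1.37 FPKM. Cxcr6 (chr9:123806477-123811754), a chemokine receptor of tissue-resident and effector T cells, was at 3.95, 11.1, 2.32 and 1.92 FPKM, 5.81-fold apart between the treated libraries. Its model overlaps that of Fyco1, which was at 2.11, 3.29, 2.40 and 2.56 FPKM, so its values are uncertain.

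The transcription factors of the T lineage were low, at 5.42 FPKM or less in every library. Tbx21, which encodes T-bet of type 1 T cells and natural killer cells, was at 2.44, 5.42, 1.90 and 1.86 FPKM. Gata3, a factor of T cell development and type 2 T cells, was at 0.947, 1.97, 0.994 and 0.764 FPKM. Their ratio, Tbx21 over Gata3, was 2.58, 2.75, 1.91 and 2.44. Tcf7, which encodes TCF-1 of naive, memory and stem-like T cells, was at 1.05, 1.79, 1.27 and 1.15 FPKM. Lef1, its relative, which other cell types including tumour cells can make, was at 3.44, 2.67, 3.60 and 2.98 FPKM, and was the only one of the 39 that was lowest in treated deficient tumours. Bcl11b, a factor that commits cells to the T lineage, was below 1 FPKM throughout, at 0.244, 0.571, 0.234 and 0.203 FPKM.

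The first comparison asked how T cell genes stood in deficient tumours with anti-PD-1 against untreated ones. On the scale of log2(FPKM + 1), which understates ratios of low genes, 38 of 39 were higher, with a median log2 ratio of 0.72 and a range from -0.28 (Lef1) to 1.30 (Cd3g). Over the 11692 genes that reached 1 FPKM in either library the median was -0.06, and 40.2% of them were above 0. A log2 ratio of at least 1 was reached by 10 of the 39, as against 1.49% of all genes, and none was lower by that size, as against 0.351%. These were Cd3e, Cd3g, Cd4, Cd8a, Cd8b1, Ptprcap, Cd27, Itgal, Il2rg and Cxcr6. The count of 10 depended on the pseudocount of 1, with 18 for a pseudocount of 0.1 and 2 for a pseudocount of 5. The number of the 39 that passed the minimum of 1 FPKM was 36, and Gata3 passed it through the treated library alone. In plain FPKM with no minimum, 21 of 39 were at least 2-fold higher, with Cd4 at 2.92-fold, Cxcr6 at 2.82-fold and Cd27 at 2.78-fold. Of the 36 past the minimum 20 were, as against 3.34% of all genes past it. By role, the median log2 ratio was 1.14 for the 3 coreceptors, 0.94 for the 4 receptor chains, 1.02 for the 4 cytokine and chemokine receptors, 0.67 for the 13 proximal signalling genes, 0.67 for the 10 costimulatory and adhesion genes and 0.45 for the 5 transcription factors.

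The same comparison in overexpressing tumours had the opposite sign for most of these genes at a smaller size. The median log2 ratio of the 39 was -0.14, with 9 above 0, against -0.0023 over 11437 genes, of which 49.1% were above 0. None of the 39 reached a log2 ratio of 1 in either direction, where 0.0525% of all genes were higher and 0.280% lower by that size. The 10 skeletal muscle genes were lower in the same treated library, with a median log2 ratio of -1.85, none above 0 and 7 lower by a log2 of at least 1, and their part in the T cell values was not tested. The lowest ratios were those of Cd3d at -0.71, Cd8a at -0.62 and Cd3e at -0.56. In plain FPKM, Cd3d was 2.098-fold, Cd8a 1.69-fold and Cd3e 1.55-fold lower with treatment. Cd247, Cd2, Cd4, Skap1, Txk, Il2rg and Il7r, by contrast, had log2 ratios between 0.01 and 0.08. Among receptor chains the range was therefore from -0.71 (Cd3d) to 0.04 (Cd247).

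**Figure D2:**
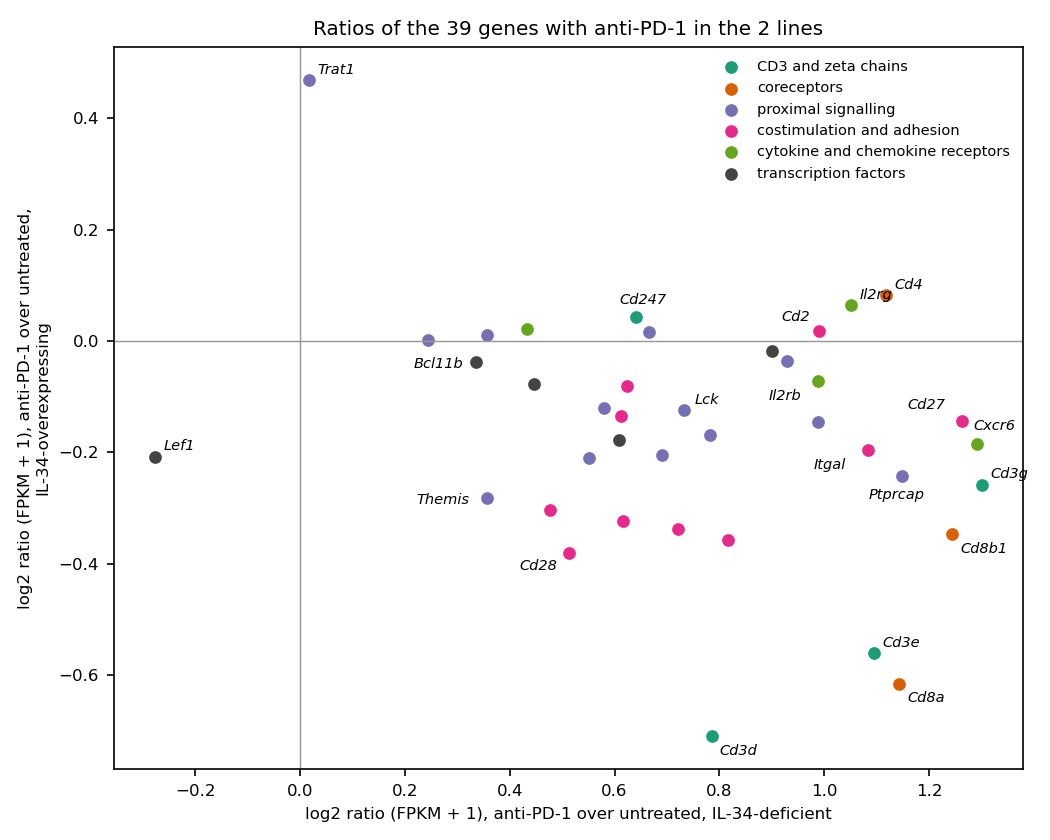
Log2 ratio of FPKM + 1, anti-PD-1 over untreated, for each of the 39 genes in the deficient line (horizontal) and the overexpressing line (vertical), 1 library per group, coloured by role. All but Lef1 lie right of 0, and Cd3d, Cd8a and Cd3e lie lowest, at -0.71, -0.62 and -0.56.

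The difference of the log2 ratios, overexpressing minus deficient, was below 0 for 37 of 39, with a median of -0.92 against 0.06 over 11790 genes. It was -1 or lower for 14 of the 39, as against 2.18% of all genes, and 1 or higher for none, as against 0.526%. With pseudocounts of 0.1 and 5 the lower count was 25 and 6. Cd8a had the lowest difference, -1.76, followed by Cd3e at -1.66, Cd8b1 at -1.59 and Cd3g at -1.56. Cd247, at -0.60, lay well short of the CD3 chains. Only Trat1 (0.45) and Lef1 (0.07) were above 0. With 1 library per group this difference has no residual and was not tested. Across the 39 genes, the ratios of both lines, which share no library, correlated at r = -0.30 and rho = -0.21 as a description, since genes of the same libraries are not independent and low genes are compressed on both axes.

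The untreated lines were compared to ask whether overexpressing tumours held other T cell levels without treatment. Summed muscle genes were at 134 FPKM in the deficient and 105 FPKM in the overexpressing library of this comparison, and epidermis genes at 5.62 and 1.58 FPKM. The median log2 ratio, overexpressing over deficient, was -0.09, with 12 of 39 above 0, against -0.03 over 11443 genes, of which 40.0% were above 0. After rescaling to TPM, 16 of 39 were above 0. None of the 39 reached a log2 ratio of 1, where 0.122% of all genes were higher and 0.0961% lower by that size. The lowest ratios were those of Cxcr6 (-0.58), Cd8a (-0.51), Cd8b1 (-0.44), Lat (-0.42), Cd3e (-0.37) and Cd247 (-0.37), and the highest was that of Txk (0.39). All 4 receptor chains and all 3 coreceptors were below 0, though Cd3d was nearly equal in both libraries (-0.01). The 5 transcription factors were divided, with 3 above and 2 below.

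Under anti-PD-1, overexpressing tumours had lower T cell levels than deficient tumours for 37 of the 39. The median log2 ratio was -1.01 against 0.04 over 11712 genes, of which 56.8% were above 0. A log2 ratio of -1 or lower was found for 20 of the 39, as against 2.37% of all genes (8 of 39 with a pseudocount of 5). In plain FPKM with no minimum, 30 of 39 were at least 2-fold lower. Of the 36 past the FPKM minimum 28 were, as against 4.38% of all genes past it. Ubash3a, among both the 20 and the 28, passed that minimum through the treated deficient library alone, where it was higher. The same held for Cd28, Sh2d1a and Gata3 among the 28. Cd8a (-2.26), Cxcr6 (-2.06), Cd8b1 (-2.04), Cd3e (-2.03) and Cd3g (-1.90) had the lowest ratios. The 13 proximal signalling genes had a median of -0.84 and the 5 transcription factors one of -0.38. This comparison shares its libraries with the anti-PD-1 comparisons, so it is no separate support for them. The ratios of the lines with and without treatment, which share no library, correlated across the 39 genes at r = 0.69 and rho = 0.66, and across 11790 genes at r = 0.20 and rho = 0.07, given as a description with no test.

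**Figure D3:**
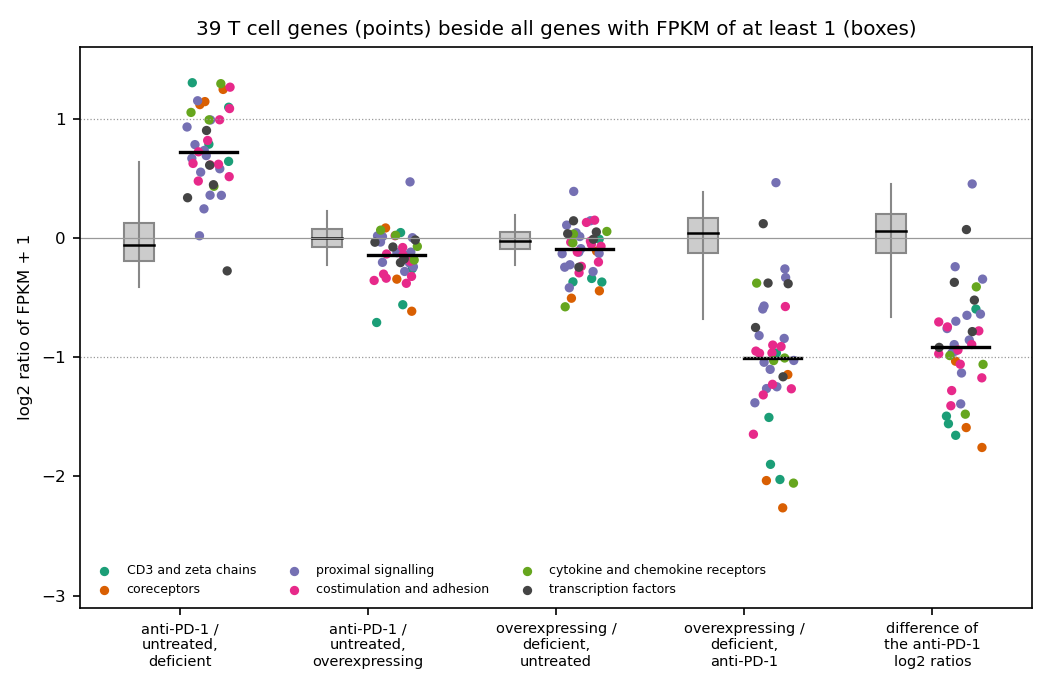
Log2 ratios of FPKM + 1 of the 39 T cell genes (points, coloured by role, with a black bar at their median) in the 5 comparisons, beside all genes with FPKM of at least 1 (box from the 25th to the 75th percentile with the median, line from the 5th to the 95th). Medians of the 39 genes are 0.72, -0.14, -0.09, -1.01 and -0.92 from left to right.

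To see which genes departed from the receptor, each level was divided by the mean of Cd3d, Cd3e and Cd3g in the same library. With anti-PD-1 this ratio was lower for 34 of 39 genes in deficient tumours, with a median fold of 0.859, and higher for 29 of 39 in overexpressing tumours, with a median fold of 1.22. The divisor itself went from 10.2 to 24.0 FPKM in deficient and from 7.997 to 5.67 FPKM in overexpressing tumours. A gene of unchanged level would therefore count as lower in the deficient and higher in the overexpressing line. The share of all genes was not computed, and the CD3 genes are themselves among the 39. The folds that follow are changes of this ratio with treatment, not levels set against the CD3 mean. In deficient tumours the ratio was higher with treatment for Cd4 (1.23-fold), Cxcr6 (1.19-fold), Cd27 (1.18-fold), Cd3g (1.08-fold) and Cd8b1 (1.07-fold). The lowest folds there were those of Lef1 (0.328-fold), Trat1 (0.461-fold), Rhoh (0.572-fold), Skap1 (0.583-fold), Lcp2 (0.646-fold) and Thy1 (0.658-fold). In overexpressing tumours Cd4 (1.55-fold), Il2rg (1.48-fold), Cd247 (1.47-fold), Il7r (1.45-fold), Txk (1.43-fold) and Cd2 (1.43-fold) had high folds. Trat1 was farther out at 5.24-fold, from levels below 1 FPKM. Cd8a (0.836-fold), Cd28 (0.819-fold), Cd3d (0.672-fold) and Themis (0.625-fold) had the lowest folds in that line. Thy1 over Cd3e was 2.97, 2.07, 4.30 and 6.30 in the 4 libraries.

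**Figure D4:**
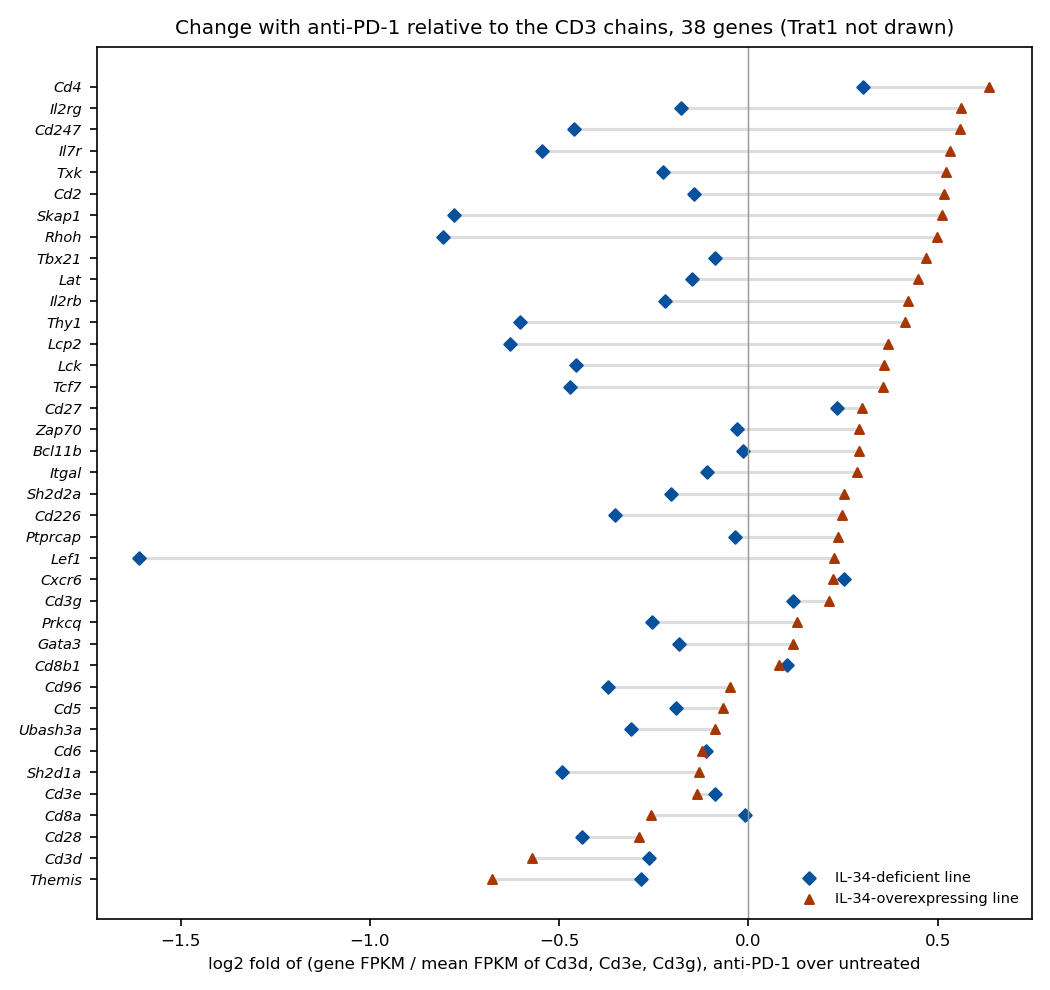
Log2 fold, anti-PD-1 over untreated, of each gene's FPKM divided by the mean FPKM of Cd3d, Cd3e and Cd3g in the same library, for 38 genes. Diamonds are the deficient and triangles the overexpressing line, 1 library per group. Most diamonds lie left of 0 (34 of all 39 genes) and most triangles right of it (29 of all 39). The CD3 mean itself was higher with treatment in the deficient line and lower in the overexpressing line.

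Genes of other cells did not all move with these values. The 7 pan-leukocyte genes, among them Ptprc (CD45), had median log2 ratios with anti-PD-1 of 0.43 in deficient and 0.03 in overexpressing tumours. In deficient tumours 32 of the 39 T cell genes had a ratio above that pan-leukocyte median, and in overexpressing tumours 35 had a ratio below it. The shares of all genes above and below it were not computed. The median over all genes was -0.06 in deficient and -0.0023 in overexpressing tumours, below the pan-leukocyte median in both lines. Cd3e over Ptprc was 0.533, 0.706, 0.427 and 0.257. Summed levels were 2030, 3428, 2082 and 1844 FPKM for 8 macrophage genes and 9.09, 13.5, 8.24 and 9.74 FPKM for 8 conventional dendritic cell genes. Most of the macrophage sum was C1qa, C1qb and C1qc, and C1qa and C1qc had differences of the anti-PD-1 log2 ratios of -1.06 and -1.05. With anti-PD-1, 7 of the 8 macrophage genes had ratios above 0 in deficient and 3 in overexpressing tumours. Cd14 was lower with treatment in deficient tumours, at 51.7 and 40.0 FPKM. The part of these cells in the levels of members they share, such as Il2rg, Itgal and Lcp2, was not tested.

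Natural killer cells share Cd247, Cd2, Il2rb, Tbx21 and other members with T cells. The 10 natural killer genes summed to 66.5, 102, 90.7 and 89.8 FPKM, of which Gzma, the protease granzyme A, which T cells also make, gave 41.2, 50.8, 64.6 and 64.2 FPKM. Ncr1, which encodes the receptor NKp46 and defines these cells in mice, was at 6.599, 10.9, 7.42 and 6.80 FPKM. Klrd1, which activated CD8 T cells can also express, was at 5.86, 15.3, 6.36 and 5.13 FPKM and was the only 1 of the 10 with a log2 ratio of at least 1 with anti-PD-1 in deficient tumours (1.25). Klrk1 was at 7.41, 15.6, 6.03 and 6.02 FPKM. Under anti-PD-1, the log2 ratios of overexpressing over deficient tumours were -1.41 for Klrd1 and -1.24 for Klrk1. The ratio of Cd3e to Ncr1 was 1.94, 2.62, 1.31 and 0.919, lowest in treated overexpressing tumours.

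B cell, type 2 innate lymphoid and gamma delta T cell markers were mostly near 0. The 8 B cell genes summed to 3.54, 7.08, 3.61 and 3.15 FPKM. Of these, Cd22 alone passed the size rule and was highest in the treated deficient library. Its log2 ratio of overexpressing over deficient tumours under anti-PD-1 was -1.10. Its difference of the anti-PD-1 log2 ratios was -1.43. Il17a was listed at 0 in all 4 libraries. The 7 type 2 innate lymphoid genes summed to 48.9, 34.3, 43.3 and 41.2 FPKM, most of it Il1rl1, the IL-33 receptor, which other cells make as well, while Il5 and Il13 were below 0.1 FPKM throughout. The 7 gamma delta genes summed to 18.1, 22.4, 18.3 and 18.2 FPKM, most of it Maf, which macrophages also make. The Langerhans cell gene Cd207 was at 0.25 FPKM or less in each library. Constant regions of the receptor genes themselves were not matched by symbol and were not analysed here.

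**Figure D5:**
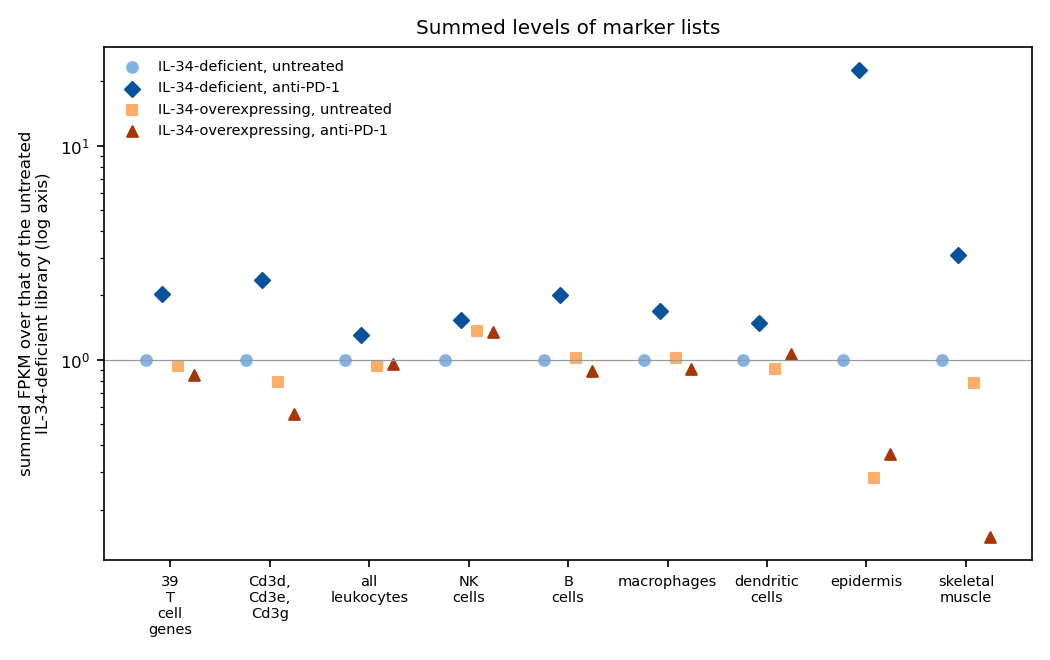
Summed FPKM of the 39 T cell genes and of marker lists, and the mean of the 3 CD3 chains, each divided by its value in the untreated deficient library (log axis), 1 point per library. The treated deficient library is highest for each list drawn, most of all for epidermis (127 against 5.62 FPKM) and skeletal muscle (415 against 134 FPKM).

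Further genes of the pathway that are not among the 39 had smaller median ratios. Of 33 other receptor signalling genes, 27 were above 0 with anti-PD-1 in deficient tumours, with a median log2 ratio of 0.30 and none past 1 in size. The highest were Nfatc2, a calcium-driven transcription factor, at 2.79, 5.595, 2.49 and 2.64 FPKM (0.80), and Lax1, an inhibitory adaptor, at 1.90, 3.98, 1.59 and 0.929 FPKM (0.78). Bcl10 and Plcg1, which many cell types make, were lower with treatment, with log2 ratios of -0.27 and -0.22. In overexpressing tumours the median of the 33 was -0.04, with 13 above 0. For overexpressing over deficient tumours under anti-PD-1 the median was -0.37, and for the difference of the anti-PD-1 log2 ratios it was -0.42. Lax1 alone of the 33 was past 1 in size in these comparisons, at -1.37 and -1.21. Ptpn6, the phosphatase SHP-1 and the most abundant of the list, was at 62.7, 87.1, 54.0 and 54.2 FPKM.

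Of 15 other transcription factors used by T cells, 10 were above 0 with anti-PD-1 in deficient tumours and 6 in overexpressing tumours, with medians of 0.23 and -0.05. Ikzf3, the lymphocyte factor Aiolos, was at 1.76, 4.02, 1.497 and 1.28 FPKM, and Tox, a factor of exhausted T cells, at 1.74, 3.33, 1.005 and 0.802 FPKM. Both had log2 ratios of -1 or lower between overexpressing and deficient tumours under anti-PD-1, as did 2 of the 15 in all. Foxp3, the factor of regulatory T cells, stayed below 1 FPKM, at 0.537, 0.981, 0.668 and 0.880 FPKM. The 5 further genes of naive and memory cells had median log2 ratios with anti-PD-1 of 0.25 in deficient and 0.06 in overexpressing tumours.

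Among the 3 libraries other than the treated deficient one, 7 of the 39 varied at least 2-fold from the lowest to the highest, Cd3d, Cd3e, Cd8a, Themis, Ubash3a, Trat1 and Cxcr6. This count has no FPKM minimum. Of the 35 members past the minimum in these libraries, 5 varied by that much, as against 1.61% of all genes past it. For all of the 7 but Trat1, treated overexpressing tumours had the lowest level, in the library that was also lowest in summed muscle genes.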

How the data were processed

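RNA-seq had been performed on 4 tumour groups with 1 library each. The authors deposited 1 table of FPKM values with RefSeq accessions. The submitters' processing notes name the mm10 build, Cufflinks 2.2.1, TopHat2 2.1.0 and CASAVA 1.8.2, and no settings are given here. Library kits were strand-specific per the labels' protocols. Short RNA rows were left out, and the row with the highest mean was kept where a symbol had several. Ratios are log2(FPKM + 1) differences, which shrink ratios of low genes, and counts take genes with a log2 size of 1 that reach 1 FPKM in a library compared. Medians are over all 39 genes with no minimum, which is used as an alternative instead. Counts of the 39 above or below 0 also have no minimum, while the shares over all genes do. As no group has a replicate, no test was made. Table starts are counted from 0 and printed from 1. The ratio formula was checked on copies of 1 library with planted changes and no noise, which tests the arithmetic alone. The genes and lists were chosen with earlier results of these data known, and every one of the 39 is named by rule. From the other lists, the text names genes past the size rule, except those of epidermis and skeletal muscle, the most abundant and some chosen after their values were seen. Alternatives were pseudocounts of 0.1 and 5, FPKM minima, rescaling and summed rows. Python 3.11.15, numpy 2.4.6, pandas 2.3.3 and matplotlib 3.10.9 were used. Some genes of the other lists are not reported here.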

Additional observations from a re-analysis of the deposited data

Results flagged for a closer look

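For 13 of the 39 genes the treated library lay above the untreated one in deficient tumours and below it in overexpressing tumours, with log2 ratios at least 1 apart. The share of all genes that meet this rule was not computed. Without the condition on signs, the difference was -1 or lower for 14 of the 39 and for 2.18% of all genes. The differences, overexpressing minus deficient, were -1.49 for Cd3d, -1.66 for Cd3e, -1.56 for Cd3g, -1.76 for Cd8a and -1.59 for Cd8b1. They were -1.13 for Zap70, -1.39 for Ptprcap, -1.06 for Cd5, -1.17 for Cd6, -1.41 for Cd27 and -1.28 for Itgal. Il2rb had -1.06 and Cxcr6, whose model overlaps another, -1.48. The median over the 39 genes was -0.92. These differences were not tested, as each group had 1 library, and epidermis and skeletal muscle genes were higher in the treated deficient library. Skeletal muscle genes were lower in the treated overexpressing library than in the untreated one.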

How the results depend on the processing

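No paired analysis was possible because each group has 1 library. Without replicates, the spread behind each value is unknown, and leaving out a library leaves no comparison. No direction reversed for a median or for a gene past the size rule under the alternatives run. With a pseudocount of 0.1, the genes past a log2 of 1 numbered 18 in deficient tumours with anti-PD-1, 25 lower in the difference of responses and 1 lower in overexpressing tumours with anti-PD-1 (0 with a pseudocount of 1). With a pseudocount of 5 these were 2 higher and 6 lower, and 8 were lower in overexpressing tumours under anti-PD-1. The medians with a pseudocount of 5 were 0.40 and -0.070 for anti-PD-1 in the deficient and overexpressing lines, -0.039 and -0.54 for the lines untreated and treated, and -0.49 for the difference. A minimum of 5 FPKM moved the median of the untreated lines to -0.18. Rescaling to TPM moved the median of all genes in the deficient comparison from -0.06 to 0.08. It gave 18 higher genes there and 28 lower in the difference. Rescaling to equal FPKM totals without epidermis and muscle genes, added after seeing the data, gave 15 and 20. Those genes made up 0.111% of all FPKM in the treated deficient library and less in the others. That rescaling therefore mainly evens out the totals and does not test the part of this tissue. The other 106 checks of counts and medians stayed within 1.5-fold. Of the checks of single genes, 1044 stayed close and 126 moved further. These totals include checks whose outcome was fixed in advance. Summing the rows of a symbol could change no value, as every T cell gene had a single row. For a ratio between libraries, dropping the FPKM minimum could change no count, since levels below 1 FPKM cannot reach a log2 of 1. Many of the counts were 0 under both settings. The totals are therefore no measure of robustness.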
